A study of Mus musculus with 6 samples.

Results

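The actin isoforms of the mouse were followed through cultured aortic smooth muscle cells of *Smyd2* floxed and *Smyd2* knockout mice. The isoforms were taken as the genes whose symbol in the deposited expression table equals *Acta1*, *Acta2*, *Actb*, *Actc1*, *Actg1* or *Actg2*. Of these 6 symbols, 5 matched a row, among 18112 rows in all. *Actc1*, the cardiac isoform, was not analysed here.

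Actin is the protein of the thin filaments that myosin pulls on, and mammals encode it in a small family of genes with very similar coding sequence. *Acta2* and *Actg2* encode the smooth muscle isoforms, *Acta1* and *Actc1* those of skeletal and heart muscle, and *Actb* and *Actg1* the cytoplasmic isoforms that every cell uses for its shape and movement. In the vessel wall, *Acta2* is the main contractile actin and a standard marker of differentiated smooth muscle, and serum response factor is known to act on the muscle actin genes through a short DNA element called the CArG box.

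To determine how the isoforms differ between the genotypes, RNA-seq libraries of primary vascular smooth muscle cells (VSMCs) from the aorta were compared. The cells came from young adult mice on the C57BL/6 strain. In the *Smyd2* SMC-/- group (3 libraries), floxed *Smyd2* alleles were deleted by Cre recombinase under the *Tagln* promoter, which is itself a smooth muscle gene, so that deletion is limited to cells that have used this promoter. The *Smyd2* fl/fl group (3 libraries) came from littermates with the same floxed alleles and no Cre. They are called knockouts and controls in what follows. The labels give cells at passage 6 grown in medium with 10% serum, whereas the study's methods describe an earlier passage and serum starvation. The study's methods say in general that data come from at least 3 independent experiments. No source states that the libraries of a group came from separate mice or cultures, so that p-values measure the spread between these libraries, which may be technical.

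Expression was given as FPKM, the fragments of a gene divided by its length and by the size of the library, which allows levels to be compared between genes. The table used here holds no library sizes, but low values of a gene come in steps of what 1 fragment is worth, which gives an approximate size. In the order of replicates 1, 2 and 3, used for all values here, the *Smyd2* fl/fl libraries held about 18700000, 20000000 and 19750000 fragments, and the *Smyd2* SMC-/- libraries about 17100000, 19500000 and 19250000. Between 71.3% and 74.0% of the low values used came out whole, to a tolerance of 0.15 fragments, a share that describes the fit, since the sizes were chosen to bring these values to whole fragments.

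*Smyd2*, the lysine methyltransferase gene targeted in these mice (NCBI Gene 226830, chr1:189880492-189922363 of GRCm38), was read first as a check of the labels. It had 7.87, 3.1 and 3.0 FPKM in the control libraries and 1.67, 0.40 and 0.80 in the knockout libraries. Each knockout library lay below each control library, in the direction the labels give. The level covers the whole gene, of which only exon 2 is floxed, and the deleted exon was not read on its own. The replicate 1 library was the highest of its group in both genotypes. On the scale of log2(FPKM + 1), the difference was −1.48 (standard error 0.389, adjusted p = 0.105 in limma), and blocking on the replicate number gave an adjusted p of 0.0189. Across genes, the replicate 1 libraries of both groups deviated together and stood apart from replicates 2 and 3. Replicates 2 and 3 of different groups deviated together about as much as same-numbered ones, so that pairing them by number rests on the labels. Tests in replicates 2 and 3 alone are given too for *Smyd2*, the tested isoforms, the gene lists and the tested genes of these lists described library by library. For *Smyd2* the log2 fold change there was −1.35 (adjusted p = 0.00126 in limma).

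The 5 isoform genes lie on 5 chromosomes, all on the minus strand of GRCm38 in the GENCODE annotation, since the deposited table gives no positions. *Acta2* (NCBI Gene 11475) is at chr19:34241090-34255590 with 9 exons, *Actg2* (11468) at chr6:83512905-83536265 with 9 exons, and *Acta1* (11459) at chr8:123891769-123894751 with 7 exons. *Actb* (11461) is at chr5:142903115-142906754 and *Actg1* (11465) at chr11:120345690-120348542, each with 6 exons. Coding sequences were between 1125 and 1131 bases long. In each gene the start codon falls in exon 2, and the first 60 coding bases show where the isoforms part. Capitals mark bases that differ from *Acta2* in a global alignment of the whole coding sequences, or that have no aligned base there.
Acta2, chr19:34252494-34252553: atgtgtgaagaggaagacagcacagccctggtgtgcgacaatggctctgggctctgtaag
Actg2, chr6:83527382-83527441: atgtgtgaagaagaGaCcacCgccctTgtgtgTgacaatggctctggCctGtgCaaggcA
Acta1, chr8:123893638-123893697: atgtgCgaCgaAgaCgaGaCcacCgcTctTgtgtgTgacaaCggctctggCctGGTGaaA
Actb, chr5:142905627-142905686: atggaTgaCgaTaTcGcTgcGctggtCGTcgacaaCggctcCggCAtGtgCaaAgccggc
Actg1, chr11:120348032-120348091: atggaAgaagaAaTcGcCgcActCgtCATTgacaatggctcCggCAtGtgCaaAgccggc

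Against *Acta2*, 9 of these 60 bases are in capitals in *Actg2* and 17 in each of *Acta1*, *Actb* and *Actg1*. Over the whole coding sequence, *Actb* and *Actg1* were the most similar pair, with 88.6% of aligned bases identical. *Acta2* was identical to *Acta1* at 85.4%, to *Actg2* at 84.4%, to *Actb* at 83.3% and to *Actg1* at 82.0% of aligned bases. Such similarity can lead a counting tool to split fragments between genes, so the whole transcripts were compared in windows of 100 bases, the length of a read. Of the 1936 windows of *Acta2* and the 1234 windows of *Actg2*, 0 stood unchanged in the transcript of another of the 5 isoforms. The same count was 0 of 1347 for *Acta1*, 0 of 1821 for *Actb* and 0 of 1853 for *Actg1*. The longest stretch shared without a difference was 77 bases, between *Acta1* and *Actb*, and for *Acta2* it was 56 bases, with *Actg1*. Reads with sequencing errors and other actin-like copies in the genome were not part of this comparison, and the values of the low isoforms remain uncertain to that extent.

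The 5 isoforms fell into a high set and a low set. *Actg1* and *Actb* were the most abundant, *Acta2* followed, and *Actg2* and *Acta1* lay at or below a few FPKM. In the controls, the mean level was 1909 ± 248 FPKM (SD, n = 3) for *Actg1*, 1370 ± 188 for *Actb*, 709 ± 45.5 for *Acta2*, 1.96 ± 0.361 for *Actg2* and 0.167 ± 0.219 for *Acta1*. In the knockouts, it was 1493 ± 107 FPKM (SD, n = 3) for *Actg1*, 1236 ± 20.9 for *Actb*, 244 ± 37.1 for *Acta2*, 0.523 ± 0.299 for *Actg2* and 0.213 ± 0.131 for *Acta1*. The order was the same in both genotypes, and neighbours in it did not overlap, except *Actg2* and *Acta1* in the knockouts. Among all 18112 rows of a library, *Actg1* ranked between 7 and 13 and *Actb* between 14 and 34. *Acta2* ranked 52, 95 and 82 in the controls and 278, 214 and 210 in the knockouts.

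**Figure D1:**
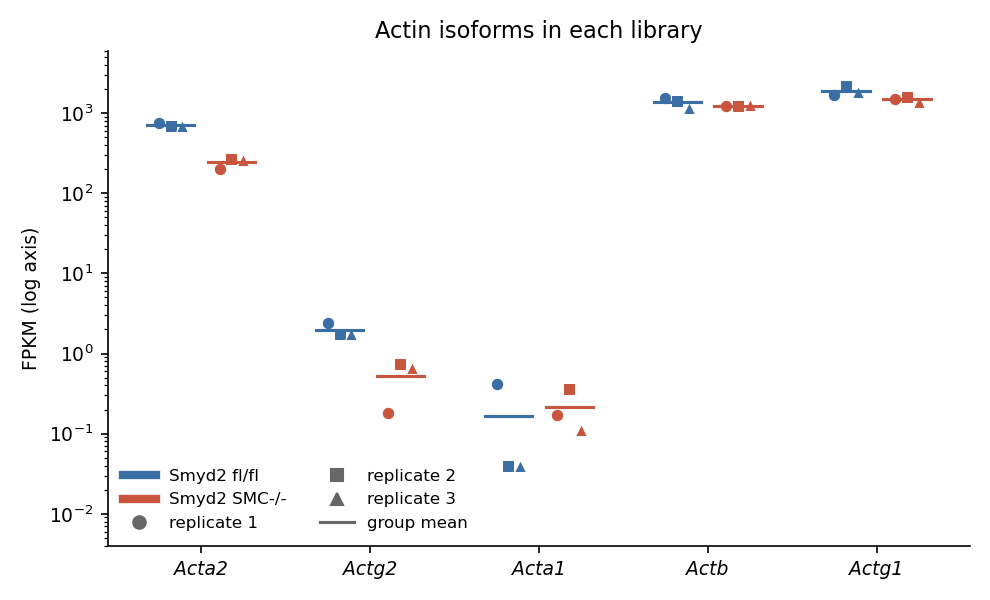
FPKM of each actin isoform on a log axis, with 1 point per library, shaped by replicate and coloured by genotype, and lines at the group means. *Acta2* lies between 682 and 761 FPKM in *Smyd2* fl/fl and between 201 and 268 in *Smyd2* SMC-/-, while the points of *Actb* and *Actg1* stay above 1000.

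*Acta2* was lower in the knockouts. It had 761, 682 and 683 FPKM in the control libraries and 201, 268 and 262 in the knockout libraries. The ranges were far apart, with all control libraries on the high side, and the lowest was knockout replicate 1. The mean was 2.91-fold higher in the controls. Both levels rest on many fragments, from about 7000 to about 28000 per library. Limma's log2 fold change was −1.55, with a standard error of 0.153 (95% interval −1.91 to −1.18, adjusted p = 0.00803 in limma over 12565 tested genes), and 0.79% of the tested genes had a lower value. In the same-numbered pairs the log2 difference was −1.92, −1.35 and −1.38, and in replicates 2 and 3 alone it was −1.36 (adjusted p = 0.00023 in limma). The two-sided exact permutation test gave p = 0.1, the smallest p that 3 against 3 libraries allow. The adjusted p in limma rose to 0.0541, 0.0615 and 0.0531 without control replicate 2, control replicate 3 and knockout replicate 3, over a range of 0.00023 to 0.0615 in all alternatives. Tested genes of chromosome 19, which holds *Acta2*, had a median log2 fold change of −0.42. Subtraction of chromosome medians, chosen after seeing the data, left *Acta2* at −1.13 (adjusted p = 0.0397 in limma). In bulk RNA, fewer cells that make an isoform and less of it per cell cannot be told apart.

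*Actg2*, the smooth muscle isoform best known from the gut and bladder wall, was present at a much lower level. It had 2.38, 1.74 and 1.77 FPKM in the controls, or about 56, 44 and 44 fragments, and 0.18, 0.73 and 0.66 FPKM in the knockouts, or about 4, 18 and 16 fragments. The groups did not overlap, and knockout replicate 1 was again the lowest library. Limma's log2 fold change was −0.97, with a standard error of 0.217 (adjusted p = 0.0722 in limma), short of the threshold of 0.05, and it understates the difference of a gene this low because 1 was added to each FPKM. It was −1.86 with a pseudocount of 0.1. It passed in replicates 2 and 3 alone, where the log2 fold change was −0.70 (adjusted p = 0.00998 in limma), and with a block of replicate 1 against replicates 2 and 3 (adjusted p = 0.0192 in limma), over a range of 0.00998 to 0.235 in all alternatives. The FPKM ratio within the pairs was 0.0756, 0.42 and 0.373.

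*Acta1*, the skeletal muscle isoform, was close to the limit of detection. It had 0.42, 0.04 and 0.04 FPKM in the controls, about 11, 1 and 1 fragments, and 0.17, 0.36 and 0.11 FPKM in the knockouts, about 4, 10 and 3 fragments. The groups overlapped, and the highest libraries were control replicate 1 and knockout replicate 2. Its mean was below the 0.5 FPKM required for the test, and the two-sided exact permutation p was 0.6. With so few fragments, no difference could be detected.

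The cytoplasmic isoforms differed by less. *Actb*, often used as a reference gene, had 1533, 1411 and 1165 FPKM in the control libraries and 1219, 1230 and 1259 FPKM in the knockouts. The groups overlapped, and control replicate 3 was the lowest of all 6 libraries. Limma's log2 fold change was −0.14, with a standard error of 0.141 (adjusted p = 0.653 in limma), and its 95% interval spans ratios from 0.719 to 1.15. In replicates 2 and 3 alone it was −0.04 (adjusted p = 0.853 in limma). *Actg1* had 1697, 2183 and 1848 FPKM in the controls and 1479, 1606 and 1393 in the knockouts. Here the groups did not overlap, although control replicate 1 and knockout replicate 2 came near each other. Limma's log2 fold change was −0.35, with a standard error of 0.144 (adjusted p = 0.240 in limma), with a 95% interval of ratios from 0.619 to 0.996 before any adjustment for the number of genes. The estimate from replicates 2 and 3 alone was −0.42 (adjusted p = 0.0750 in limma). Under quantile normalization the estimate became 0.28 for *Actb* (standard error 0.153) and 0.02 for *Actg1* (standard error 0.106). Neither cytoplasmic isoform thus has a direction that holds under every scaling. The value for *Actg1* is smaller than its error, and this method sets values by rank, so it carries little of a difference between genes at the top. With libraries rescaled to the same sum or by their median ratio, the estimates were −0.014 and −0.098 for *Actb* and −0.225 and −0.309 for *Actg1*.

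**Figure D2:**
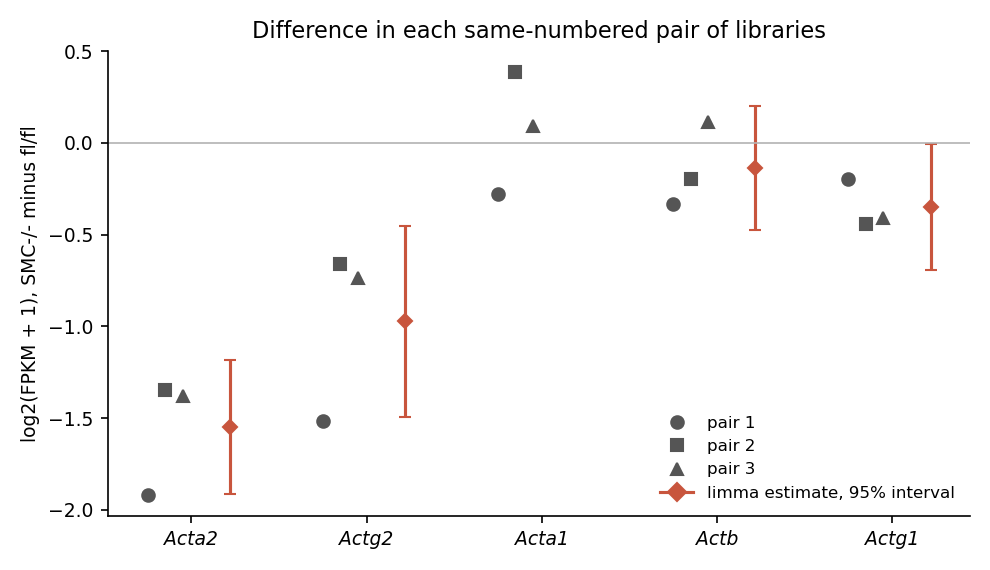
Difference in log2(FPKM + 1) between *Smyd2* SMC-/- and *Smyd2* fl/fl in each same-numbered pair of libraries (grey, shaped by pair) and limma's estimate with its 95% interval (red) for the tested isoforms. *Acta2*, *Actg2* and *Actg1* are below 0 in every pair, although the estimates of *Actg1* and *Actb* turn above 0 under quantile normalization, *Actb* is above 0 in pair 3, and *Acta1*, which was not tested, is above 0 in pairs 2 and 3.

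Of the 4 tested isoforms, 1 was lower at an adjusted p under 0.05 in limma, *Acta2*, where 1.21% of all tested genes (152) were lower, and 0 were higher, where 1.23% (154) were higher. At an unadjusted p under 0.05 the counts were 3 lower and 0 higher, against 11.2% and 9.16% of all tested genes. The 3 include *Actg1*, whose sign turns under quantile normalization. Rescaling each library to the same sum (TPM) moved the median over all genes by 0.11 on the log2 scale and the split of all calls from 152 lower and 154 higher to 99 and 247. The number of all calls, 306, was 34 and 36 without control replicates 2 and 3, and 682, 55 and 39 without knockout replicates 1, 2 and 3. When replicates were blocked, the count of lower isoforms was again 1, against 5.72% of all tested genes lower and 4.72% higher. In replicates 2 and 3 alone it was 2, *Acta2* and *Actg2*, against 17.3% lower and 12.1% higher. The groups did not overlap, with the knockouts lower, in 3 of the 4 tested isoforms and in 15.0% of all tested genes, while the opposite order was seen in 0 isoforms and 13.1% of the genes.

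Next, the make-up of the actin transcripts was described as the share of each isoform in the summed FPKM of the 5 isoforms, which does not change when a library is rescaled. *Acta2* made up 19.1%, 16.0% and 18.5% of the actin FPKM in the control libraries and 6.93%, 8.63% and 8.99% in the knockouts. The mean share was 17.8% ± 1.65 (SD, n = 3) and 8.18% ± 1.10 (SD, n = 3), a difference of −9.65 percentage points, and the groups did not overlap. In replicates 2 and 3 alone the difference was −8.40 percentage points. The share of *Actb* was higher in every knockout library than in any control library, with 38.4%, 33.0% and 31.5% in the controls and 42.0%, 39.6% and 43.2% in the knockouts. The share of *Actg1* overlapped between the groups, with 42.5%, 51.0% and 50.0% in the controls and 51.0%, 51.7% and 47.8% in the knockouts. *Actg2* and *Acta1* never exceeded 0.0596% and 0.0116%. Because shares sum to a whole, a higher share of *Actb* does not mean a higher level of *Actb*, whose mean level was 1370 FPKM in the controls and 1236 in the knockouts, with a sign that turns under quantile normalization.

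**Figure D3:**
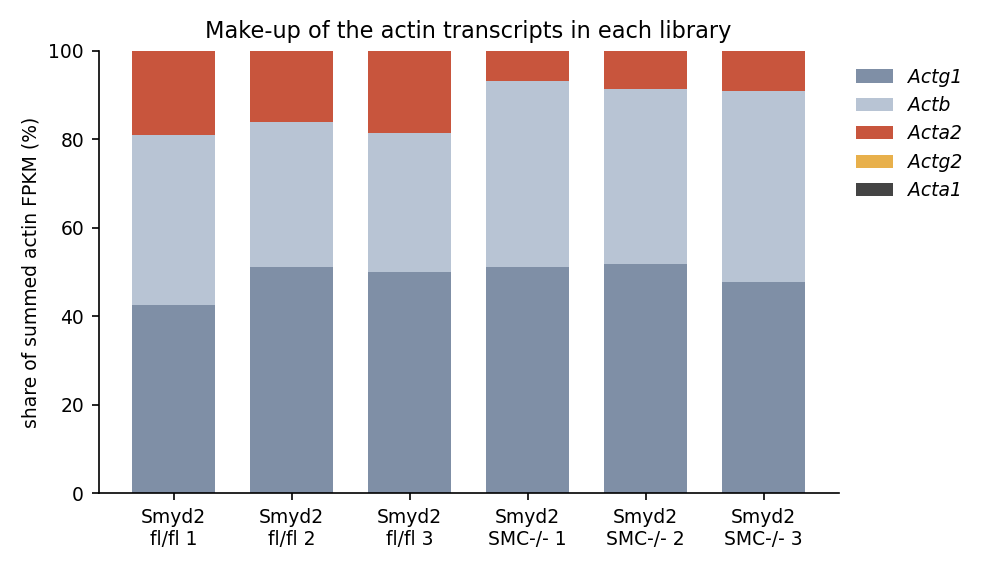
Share of each isoform in the summed actin FPKM of a library, in percent, with 1 bar per library. The *Acta2* segment spans 16.0% to 19.1% in *Smyd2* fl/fl and 6.93% to 8.99% in *Smyd2* SMC-/-, and the segments of *Actg2* and *Acta1* are too thin to see.

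The sum over the isoforms was 3995, 4278 and 3698 FPKM in the controls and 2899, 3105 and 2915 in the knockouts. Of the difference between the group means, −1017 FPKM, the muscle isoforms accounted for −467 and the cytoplasmic isoforms for −550.1, the latter a direction that quantile normalization turned for *Actb* and *Actg1*. The summed FPKM of a whole library was also lower in every knockout library, with means of 429234.9 in the controls and 393490.4 in the knockouts. Of this sum, actin held 0.929% ± 0.0468 (SD, n = 3) in the controls and 0.756% ± 0.0183 (SD, n = 3) in the knockouts. *Actb* held 0.320% and 0.314%, with groups that overlapped, and *Actg1* 0.444% and 0.379%, with groups that did not. Ratios within a library are free of library scaling. The level of *Acta2* relative to that of *Actb* was 0.497, 0.484 and 0.586 in the controls and 0.165, 0.218 and 0.208 in the knockouts. On the log2 scale the mean of this ratio was −0.94 ± 0.15 (SD, n = 3) and −2.35 ± 0.22 (SD, n = 3). Relative to *Actg1*, *Acta2* stood at 0.449, 0.313 and 0.370 in the controls and at 0.136, 0.167 and 0.188 in the knockouts. The ratio of *Actg1* to *Actb* was above 1 in all 6 libraries, from 1.11 to 1.59, and its values overlapped between the groups.

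Start regions were compared because *Acta2*, *Actg2* and *Actg1* were each lower in all 3 pairs, for *Actg1* with a sign that turns under quantile normalization. RefSeq's table of promoters (GRCm38.p6) held 3 of the 5 isoforms, *Acta2*, *Acta1* and *Actg1*. The 250 bases before each start were searched for the CArG box, which reads alike on both strands, exactly and with 1 C or G allowed in its middle. Windows of 30 bases around each match are shown for the minus strand, with the box in capitals.
Acta2, chr19:34255438-34255467: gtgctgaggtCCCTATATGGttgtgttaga
Acta2, chr19:34255388-34255417: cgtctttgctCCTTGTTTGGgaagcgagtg
Acta1, chr8:123894961-123894990: gggatactctCCATATACGGcctggtccgg
Acta1, chr8:123894910-123894939: ccagtcctctCCTTCTTTGGtcagtgcagg
Acta1, chr8:123894829-123894858: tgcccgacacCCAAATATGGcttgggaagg
Actg1, chr11:120348566-120348595: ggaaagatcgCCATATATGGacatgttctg

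The boxes of *Acta2* begin 84 and 34 bases before the start and each have 1 C or G in the middle. Those of *Acta1* begin 205, 154 and 73 bases before the start, and the last is exact. The box of *Actg1*, 90 bases before the start, is exact too. An exact box was found in 1.47% of 32851 promoter windows of this length, and a box with at most 1 such substitution in 8.59%. In the GENCODE annotation the *Acta2* transcript starts farther upstream, so that both *Acta2* windows fall in its first exon. Matches were found in *Acta2*, which was lower, as well as in *Actg1* and *Acta1*, which did not pass the test or were not tested, and no binding was measured in these libraries.

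Serum response factor and its partners, known regulators of actin genes, formed a list of 7 genes, of which 6 were tested. In limma 0 were lower and 0 higher after adjustment, beside 1.21% and 1.23% of all tested genes. The counts were 2 and 0 at an unadjusted p under 0.05, beside 11.2% and 9.16%, and 2 and 0 in replicates 2 and 3 alone, *Srf* and *Elk3*, beside 17.3% and 12.1%. *Srf* had 34.3, 28.0 and 24.97 FPKM in the controls and 17.5, 18.8 and 19.2 in the knockouts (log2 fold change −0.62, adjusted p = 0.0829 in limma, and 0.0148 in replicates 2 and 3 alone). *Elk3*, an ETS-family partner of SRF, had 64.8, 40.3 and 40.2 FPKM in the controls and 27.2, 21.9 and 19.5 in the knockouts. Its log2 fold change was −1.03 (adjusted p = 0.0726 in limma, 0.0172 with the replicate block and 0.000741 in replicates 2 and 3 alone). In neither gene did the groups overlap. *Mkl1*, the gene of a myocardin-related coactivator that responds to free actin, followed the replicates. It had 112, 38.6 and 43.4 FPKM in the controls and 76.5, 29.4 and 34.8 in the knockouts. Within each same-numbered pair the knockout library was lower in *Mkl1*. Its adjusted p was 0.714 in limma, 0.0613 with the replicate block and 0.0645 in replicates 2 and 3 alone. *Myocd*, the gene of myocardin, had 0.48 FPKM in *Smyd2* fl/fl replicate 1 and at most 0.02 in the other libraries, and was not tested.

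Other lists of actin biology were set beside the isoforms. Over 6 lists, 105 genes were tested, and in limma 4 were lower and 0 higher after adjustment, beside 1.21% and 1.23% of all tested genes. Without adjustment, 28 were lower and 3 higher at a p under 0.05, beside 11.2% and 9.16% of all tested genes. With the replicate block 15 were lower and 0 higher at the adjusted threshold, beside 5.72% and 4.72% of all genes. In replicates 2 and 3 alone 31 were lower and 8 higher, beside 17.3% and 12.1%, so that genes of these lists passed in both directions there. Over all tested genes the log2 fold changes had a median of −0.02.

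Monomer binding and filament turnover had 23 tested genes with a median log2 fold change of −0.36. In limma 2 were lower and 0 higher, beside 1.21% and 1.23% of all tested genes. The counts were 9 and 1 at an unadjusted p under 0.05, beside 11.2% and 9.16%. In replicates 2 and 3 alone they were 9 and 2, beside 17.3% and 12.1%. *Cfl1*, the gene of cofilin, which severs filaments, reached a mean close to that of *Actb* in the controls. It had 1793, 1251 and 1274 FPKM there and 720.4, 706 and 663 in the knockouts (log2 fold change −1.03, adjusted p = 0.0402 in limma, and 0.00233 in replicates 2 and 3 alone). *Capg*, which caps filament ends, had 35.3, 53.7 and 45.8 FPKM in the controls and 8.32, 15.0 and 13.8 in the knockouts (log2 fold change −1.80, adjusted p = 0.0235 in limma, and 6.87e-05 in replicates 2 and 3 alone). For both genes the groups lay well apart. *Tmsb4x* and *Tmsb10* encode thymosins that hold actin monomers, with means of 999 ± 194 and 1256 ± 251 FPKM in the controls and 554 ± 119 and 953 ± 85.3 in the knockouts (SD, n = 3). Their adjusted p in limma was 0.0939 and 0.303, and with the replicate block 0.0187 and 0.129. *Gsn* (gelsolin) and *Cfl2* were lower with the replicate block as well (adjusted p = 0.0406 and 0.0392 in limma). This brought the count of this list to 5 lower and 0 higher, beside 5.72% and 4.72% of all tested genes.

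Crosslinking and anchoring had 23 tested genes with a median of −0.29, and 2 were lower and 0 higher, beside 1.21% and 1.23% of all tested genes. At an unadjusted p under 0.05 it had 6 and 0, beside 11.2% and 9.16%. In replicates 2 and 3 alone it had 6 lower and 5 higher, beside 17.3% and 12.1% of all tested genes. *Tes*, encoding the focal adhesion protein testin, had 23.5, 29.3 and 27.8 FPKM in the controls and 11.6, 9.60 and 8.19 in the knockouts (log2 fold change −1.37, adjusted p = 0.0150 in limma, and 9.37e-05 in replicates 2 and 3 alone). *Fblim1*, encoding migfilin, which links filamin to adhesions, had 78.9, 66.4 and 77.3 FPKM in the controls and 29.8, 32.2 and 38.1 in the knockouts (log2 fold change −1.13, adjusted p = 0.0166 in limma, and 0.00123 in replicates 2 and 3 alone). Again the groups did not overlap in either gene. With the replicate block *Palld* (palladin) was a further lower gene of the list (adjusted p = 0.0406 in limma). The most abundant members did not pass the test. *Zyx* (zyxin) had 588, 746 and 808 FPKM in the controls and 501, 1255 and 1242 in the knockouts, so that pair 1 differed in direction from the other pairs, and it was higher in replicates 2 and 3 alone (log2 fold change 0.69, adjusted p = 0.00721 in limma). *Flna* (filamin A) and *Msn* (moesin) had means of 445 ± 29.0 and 400.4 ± 57.5 FPKM in the controls and 358 ± 18.9 and 275 ± 37.9 in the knockouts (SD, n = 3), and limma's adjusted p was 0.211 and 0.138.

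Actin folding and maturation, mostly subunits of the CCT chaperonin and of prefoldin, had 17 tested genes with a median log2 fold change of −0.33. In limma 0 were lower and 0 higher, beside 1.21% and 1.23% of all tested genes. The counts were 6 and 0 at an unadjusted p under 0.05, beside 11.2% and 9.16%. In replicates 2 and 3 alone they were 8 and 0, beside 17.3% and 12.1%. The chaperonin subunits *Cct2*, *Cct5* and *Tcp1* were the most abundant, with means of 239 ± 36.2, 167 ± 12.5 and 145 ± 16.4 FPKM in the controls and 153 ± 21.6, 122 ± 13.5 and 98.0 ± 6.46 in the knockouts (SD, n = 3). In none of these 3 genes did the groups overlap, and the adjusted p in limma was 0.105, 0.127 and 0.0829. With the replicate block *Cct2*, *Cct8* and *Tcp1* were lower (adjusted p = 0.0292, 0.0314 and 0.0371 in limma).

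The nucleation list, which holds the Arp2/3 complex, its activators and the formins, showed a median of −0.03, close to that of all genes. Of its 26 tested genes, 0 were lower and 0 higher in limma, beside 1.21% and 1.23% of all tested genes. The list had 2 and 2 at an unadjusted p under 0.05, beside 11.2% and 9.16%. It had 3 and 1 in replicates 2 and 3 alone, beside 17.3% and 12.1%. Its most abundant members, the Arp2/3 subunits *Arpc2*, *Arpc1b* and *Arpc3*, had means of 234 ± 14.3, 128 ± 30.3 and 112 ± 11.0 FPKM in the controls and 269.6 ± 51.0, 153 ± 8.56 and 140.4 ± 7.23 in the knockouts (SD, n = 3). Their adjusted p in limma was 0.607, 0.494 and 0.221, and the groups of *Arpc3* did not overlap, with the knockouts higher. With the replicate block the formin *Fmnl2* and the WAVE subunit *Wasf1* were lower (adjusted p = 0.0134 and 0.0258 in limma). Among 10 tested genes of other actin family proteins, with a median of −0.09, 0 were lower and 0 higher in limma. The counts were 3 and 0 at an unadjusted p under 0.05, beside 11.2% and 9.16% of all tested genes. In replicates 2 and 3 alone they were 3 and 0, beside 17.3% and 12.1%. *Actr3* and *Actr2*, the actin-related subunits of Arp2/3, had means of 105 ± 15.5 and 56.8 ± 5.39 FPKM in the controls and 105 ± 16.3 and 52.6 ± 1.13 in the knockouts (SD, n = 3). *Actr1a*, the actin-related subunit of dynactin, had 113 ± 7.01 and 79.3 ± 0.964 FPKM (SD, n = 3 each), and was lower with the replicate block (adjusted p = 0.0418 in limma) but not without it (0.0701).

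**Figure D4:**
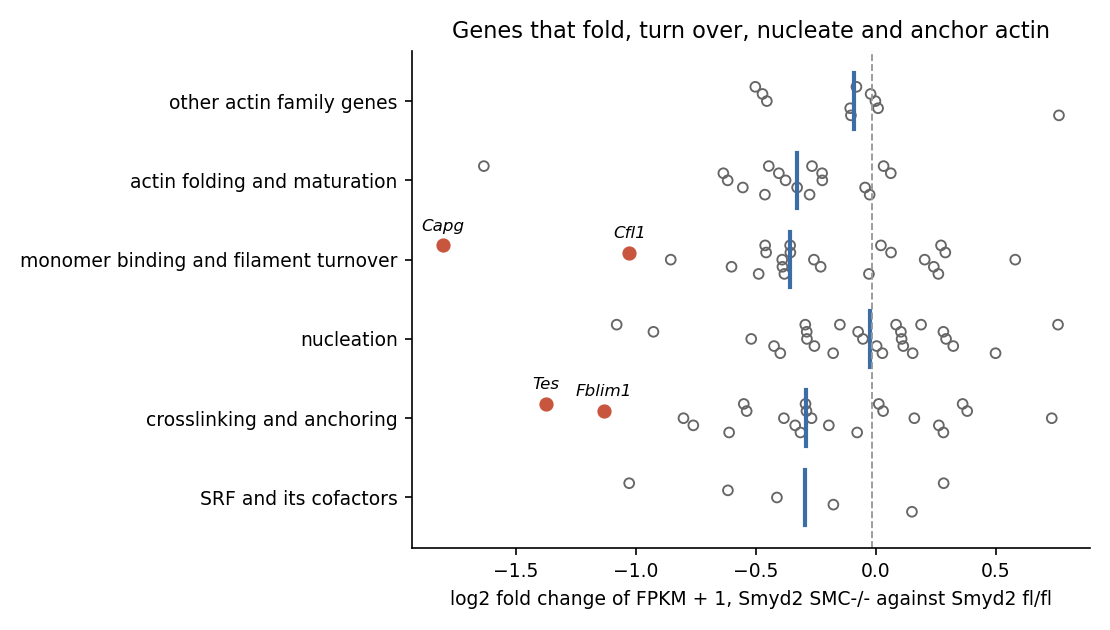
Log2 fold change of FPKM + 1 in *Smyd2* SMC-/- against *Smyd2* fl/fl for each tested gene of 6 lists of actin biology, with the list median (blue line) and the median of all tested genes (dashed line). Filled red points, *Capg*, *Cfl1*, *Tes* and *Fblim1*, have an adjusted p under 0.05 in limma.

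To place the isoforms among all genes, profiles over the 6 libraries were compared by the root mean square difference of log2(FPKM + 1) after the mean of each gene was taken off. The 5 genes nearest to *Acta2* were *Lipo3* (0.059), *Lrrc32* (0.077), *Ptprk* (0.093), *Lrp5* (0.124) and *Tmem47* (0.139). The part of the lower median of chromosome 19, which holds *Acta2*, in this likeness was not tested. *Lrrc32* encodes a membrane protein that presents latent TGF-beta, *Ptprk* a receptor tyrosine phosphatase and *Lrp5* a Wnt co-receptor. *Lrp5* had 39.1, 41.0 and 42.3 FPKM in the controls and 10.5, 16.5 and 16.9 in the knockouts, a pattern fixed by its choice as a gene near *Acta2* in these libraries. Nearest to *Actg2* were *Ska1* (0.095), *Itprip* (0.105) and *D10Wsu102e* (0.106). *Actb* was nearest to *Ppp2cb* (0.026), *Mri1* (0.037) and *Ptpn2* (0.040), and *Actg1* to *Rpl36al* (0.034), *Ndufv3* (0.041) and *Rpsa* (0.042). The isoforms themselves were farther from each other than from these genes. The difference was 0.293 between *Acta2* and *Actg2*, 0.209 between *Actb* and *Actg1*, and 0.720 between *Acta2* and *Actb*.

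**Figure D5:**
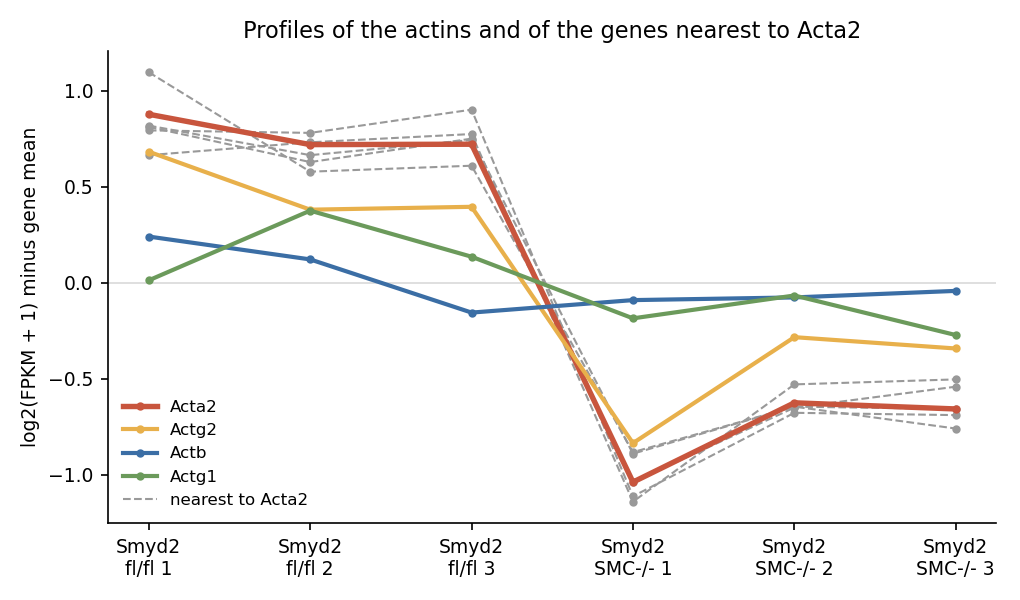
log2(FPKM + 1) minus the mean of the gene in each of the 6 libraries, with lines joining the values of 1 gene, for the tested isoforms (coloured) and the 5 genes nearest to *Acta2* (grey, dashed). *Acta2* lies between 0.72 and 0.88 in *Smyd2* fl/fl and between −1.04 and −0.63 in *Smyd2* SMC-/-, and *Actb* stays between −0.15 and 0.24 throughout.

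Finally, marker genes were read as a check of the cell type. Of 6 defining smooth muscle markers, *Acta2*, *Tagln*, *Cnn1* and *Smtn* were above 1 FPKM in every library, while *Myh11* was at most 0.22 FPKM and *Myocd* at most 0.48 FPKM. The cells thus carried smooth muscle actin with very little of the smooth muscle myosin heavy chain. All 16 genes of the smooth muscle list had a row. The list summed to 2362, 1833 and 1850 FPKM in the controls and to 1135, 1382 and 1265 FPKM in the knockouts, a sum that holds *Acta2* itself. Without *Acta2* and *Actg2* it was 1598, 1149 and 1165 FPKM in the controls and 934, 1114 and 1002 in the knockouts, so that the groups stood much closer. The most abundant gene by the mean over all 6 libraries was *Tpm1*, with 564 ± 154 FPKM in the controls, below *Acta2*, and 505 ± 59.8 in the knockouts, above it (SD, n = 3). Of the 11 tested genes of the smooth muscle list 1 was lower and 0 higher in limma, beside 1.21% and 1.23% of all tested genes. The lower one was *Acta2* itself, and with the replicate block *Cald1* was lower too (adjusted p = 0.0488 in limma). At an unadjusted p under 0.05 the list had 3 lower and 0 higher, beside 11.2% and 9.16% of all tested genes, and 3 lower and 2 higher in replicates 2 and 3 alone, beside 17.3% and 12.1%. *Tagln*, whose promoter drives Cre, had 80.5, 79.1 and 70.3 FPKM in the controls and 12.5, 87.3 and 57.1 in the knockouts. The groups overlapped, with the knockout library above its control partner in pair 2 and below it in pairs 1 and 3. The log2 fold change of *Tagln* was −0.92 (adjusted p = 0.496 in limma), and −0.08 in replicates 2 and 3 alone (adjusted p = 0.801 in limma).

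The 8 fibroblast markers summed to 610, 985 and 947 FPKM in the controls and to 1378, 1261 and 907 FPKM in the knockouts, with *Col1a1* as the most abundant gene. Of the 7 tested, 1 was lower and 0 higher in limma, beside 1.21% and 1.23% of all tested genes. The lower one was *Dpt* (dermatopontin), with 144, 90.3 and 65.5 FPKM in the controls and 3.31, 1.15 and 0.63 in the knockouts (log2 fold change −5.28, adjusted p = 0.00417 in limma, and 1.18e-05 in replicates 2 and 3 alone). There, 4 of the list were lower and 1 higher, beside 17.3% and 12.1% of all tested genes, and at an unadjusted p under 0.05 it had 3 and 1, beside 11.2% and 9.16%. The higher one in replicates 2 and 3 was *Lum* (lumican), with 0, 1.31 and 1.17 FPKM in the controls and 0.26, 14.5 and 10.4 in the knockouts (adjusted p = 0.342 in limma, and 6.68e-05 in replicates 2 and 3 alone). *Dcn* (decorin) weighed on the sums by replicate, with 13.9, 311 and 257 FPKM in the controls and 25.6, 383 and 350 in the knockouts. Within each same-numbered pair the knockout library was higher in *Dcn*. Its adjusted p was 0.890 in limma, 0.0702 with the replicate block and 0.0778 in replicates 2 and 3 alone. *Cd34* was lower with the replicate block (adjusted p = 0.0269 in limma). *Col1a1* itself had 362, 444 and 491 FPKM in the controls and 1333, 831 and 522 in the knockouts (log2 fold change 0.96, adjusted p = 0.186 in limma, and 0.133 in replicates 2 and 3 alone). Its groups did not overlap but nearly met in pair 3. The part of the fibroblast markers in the result for *Acta2* was not tested. Endothelial markers summed to at most 5.64 FPKM and leukocyte markers to at most 6.46 FPKM in any library. *Kdr* and *Cd68* were the most abundant genes by the mean over all 6 libraries. *Kdr* had 0.47, 0.58 and 0.84 FPKM in the controls and 0.96, 5.15 and 2.96 in the knockouts (adjusted p = 0.186 in limma, and 0.00263 in replicates 2 and 3 alone). In every control library *Pecam1*, which was not tested, was above *Kdr*. *Pecam1* had 0.56, 0.88 and 0.92 FPKM in the controls and 0.12, 0.18 and 0 in the knockouts. Of 8 endothelial genes 1 was tested, and of 7 leukocyte genes with a row 3 were tested. In each list 0 were lower and 0 higher in limma, beside 1.21% and 1.23% of all tested genes. Before adjustment (p under 0.05) each list had 0 and 1, beside 11.2% and 9.16%. In replicates 2 and 3 alone each had 0 and 1 too, beside 17.3% and 12.1%. Striated muscle markers, 17 of 22 with a row and 4 tested, summed to 39.1, 16.0 and 14.1 FPKM in the controls and to 16.3, 21.5 and 15.6 FPKM in the knockouts. *Tnnt2* had the highest mean over all 6 libraries, but was the highest gene of the list in no knockout library. Its mean was 14.9 ± 12.3 FPKM in the controls and 4 ± 0.508 in the knockouts (SD, n = 3). In knockout replicate 1 *Tnnt3* was highest, at 7.87 FPKM, and in knockout replicates 2 and 3 *Myl7*. *Myl7* had 0, 1.62 and 1.26 FPKM in the controls and 0.44, 13.5 and 8.5 in the knockouts (adjusted p = 0.342 in limma, and 0.000412 in replicates 2 and 3 alone). In the striated muscle list 0 were lower and 0 higher in limma, beside 1.21% and 1.23% of all tested genes. The counts were 1 and 0 at an unadjusted p under 0.05, beside 11.2% and 9.16%. In replicates 2 and 3 alone they were 2 and 1, beside 17.3% and 12.1%. None of the marker genes with a row was listed at 0 in all 6 libraries.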

How the data were processed

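Poly-A RNA of 6 libraries was read as paired 100-base reads on the BGISEQ-500 platform. The authors cleaned reads with SOAPnuke, used HISAT and Bowtie2 for mapping, and deposited FPKM from RSEM, with 2 decimals. Tool versions and the genome build are not given in the sources used here. Libraries were grouped by their labels.

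The genotypes were compared on the log2 of FPKM + 1 in limma 3.58.1 under R 4.3.3 (lmFit and eBayes, trended and robust). The fit took in 12565 genes averaging 0.5 FPKM or more, with Benjamini-Hochberg adjustment over all of them and a threshold of 0.05. It was tested on simulated data first, but no outcome of that test is given here. Exact permutation tests of FPKM were two-sided and went through every split of the libraries. The t quantiles of the 95% intervals came from scipy 1.17.1. Shares, ratios and profiles were described without a test. Library size was estimated with numpy 2.4.6 and pandas 2.3.3 from 4336 genes with 1 listed transcript, using lengths from GENCODE M21, and the fragment numbers given are approximate. Coding sequences came from the same annotation and were aligned with Biopython 1.88, and figures were drawn with matplotlib 3.10.9 in Python 3.11.15.

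Deviations from the group means correlated across genes by 0.61, 0.46 and 0.53 between same-numbered libraries, for replicates 1, 2 and 3. Replicates 2 and 3 of different groups correlated about as much, by 0.46 and 0.44, and replicate 1 with the others by −0.56 to −0.51. These values set replicate 1 apart but do not pair replicates 2 and 3 by number. The pairs and the replicate block therefore rest on the numbers in the labels. Blocking on the replicate gave 719 lower and 593 higher genes, against 152 and 154 without a block.

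The isoforms and the gene lists were chosen with earlier results of these data known. Genes named are the isoforms, *Smyd2*, and of each actin list those called (at most 6) and the 3 most abundant. The 5 genes nearest to *Acta2* and the 3 nearest to each other tested isoform were also named, as were the most abundant gene of each marker list and markers listed at 0 throughout. *Srf*, *Mkl1* and *Elk3* are the most abundant of their list, and the defining smooth muscle markers were named as such. Genes called only with the replicate block or in replicates 2 and 3, and *Dcn* and *Pecam1*, were named after their values were seen. Alternatives were another pseudocount, no filter, other scalings, blocks, fewer libraries, stricter cutoffs, chromosome medians removed and summed isoforms. Positions and sequences of *Actc1* were left out, since it was not analysed here.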

Additional observations from a re-analysis of the deposited data

How the results depend on the processing

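*Acta2* was lower in all 16 alternatives, with a log2 fold change from −1.62 to −1.13, and passed an adjusted p of 0.05 in limma in 13 of them. With each library left out in turn its log2 fold change ranged from −1.62 to −1.41. *Actg2* was lower in all 15 of its alternatives and passed in 2, with the block of replicate 1 against replicates 2 and 3 (log2 fold change −0.97, adjusted p = 0.0192) and in replicates 2 and 3 alone (−0.70, adjusted p = 0.00998). Its log2 fold change moved to −1.86 with a pseudocount of 0.1 (adjusted p = 0.107) and to −1.31 under TPM (adjusted p = 0.102, range over all alternatives 0.00998 to 0.235). *Actb* and *Actg1* passed in none of their 16 and 15 alternatives, and were below 0 in 15 and 14 of them. Quantile normalization alone turned their sign, to 0.28 and 0.023 (standard errors 0.153 and 0.106). The log2 difference of *Acta1* moved from 0.07 to 0.45 with a pseudocount of 0.1, and lay between −0.02 and 0.22 with each library left out. The difference in the share of *Acta2* was between −10.9 and −8.40 percentage points in its 10 alternatives. The causes were not tested.

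The number of genes at an adjusted p under 0.05 was 306 without a block, 1312 with the replicate block, 2550 with the block of replicate 1 and 3667 in replicates 2 and 3 alone. It was 34 to 682 with each library left out, with 278, 34 and 36 without *Smyd2* fl/fl replicate 1, 2 and 3 and 682, 55 and 39 without *Smyd2* SMC-/- replicate 1, 2 and 3. A fold change above 2 with an adjusted p under 0.01 left 53 genes. Rescaling to TPM moved the median log2 fold change by 0.11 and the counts from 152 lower and 154 higher to 99 and 247. The replicate block changed the call of none of the 4 tested isoforms.

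Removal of chromosome medians and the sum of the cytoplasmic isoforms were chosen after seeing the data. Tested genes of chromosome 19, which holds *Acta2*, had a median log2 fold change of −0.42, and after subtraction of chromosome medians *Acta2* was at −1.13 (adjusted p = 0.0397 in limma, range over all alternatives 0.00023 to 0.0615), with 197 genes called in all. Chromosome 5, which holds *Actb*, had a median of 0.28, and the same subtraction took *Actb* from −0.14 to −0.41 (adjusted p = 0.266 in limma, range 0.266 to 0.966), the lowest of its alternatives. Quantile normalization and both blocks were not run for *Acta1*, which was below the filter, and no alternative was run for *Actc1*. Depth limits *Actg2* and *Acta1*, with about 4 to 56 and 1 to 11 fragments per library.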

Other observations

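Beside the named isoforms, the deposited table holds 3 rows without a symbol that its annotation describes as actin, noticed after their values were seen. The highest, listed as BGI_novel_G000635 and described as a cytoplasmic actin, had 16.7, 15.3 and 11.2 FPKM in the *Smyd2* fl/fl libraries and 13.4, 10.0 and 6.73 in the *Smyd2* SMC-/- libraries, in the order of replicates 1, 2 and 3. The groups overlapped, and the log2 fold change was −0.50 (adjusted p = 0.346 in limma). Within same-numbered pairs the knockout library was the lower one in all 3, and limma's adjusted p came to 0.0612 under the replicate block and 0.0704 in replicates 2 and 3 alone. In both groups the replicate 3 library was the lowest. BGI_novel_G000385 and BGI_novel_G000634 had at most 0.30 and 0.50 FPKM in any library. Whether fragments of *Actb* or *Actg1* were counted in these rows was not tested.

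*Pfdn6*, a subunit of the prefoldin complex that hands unfolded actin to the chaperonin, was also noticed after its values were seen. It had 3.33, 3.68 and 0.47 FPKM in the *Smyd2* fl/fl libraries, and was listed at 0 in all 3 *Smyd2* SMC-/- libraries. Limma gave an adjusted p of 0.115, 0.0558 with the replicate block and 0.175 in replicates 2 and 3 alone. A value of 0 in a table without counts can be a failed estimate, and the other prefoldin subunits in the table, *Pfdn1*, *Pfdn2*, *Vbp1*, *Pfdn4* and *Pfdn5*, had at least 11.1 FPKM in every library.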
